A study of Mus musculus with 12 samples.

Results

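Retinoic acid receptors and the genes that move retinoic acid through a cell were examined as a group of 9 genes, of 55401 genes listed in the expression tables. They were chosen by gene symbol from textbook roles, with no measured value in the rule. They are the receptor genes Rara, Rarb, Rarg and Rxra, the binding protein genes Crabp1 and Crabp2, the retinol uptake gene Stra6 and the retinoid enzyme genes Dhrs3 and Cyp26b1.

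Adult neural stem/progenitor cells (aNSPCs) were cultured from the forebrains of C57BL/6 mice aged 8 to 10 weeks, in medium with 20 ng/mL EGF and 20 ng/mL FGF-2. RNA-seq was made of 12 libraries in 4 groups of 3, which were proliferating Ctrl, proliferating NAD+, differentiation Ctrl and differentiation NAD+. NAD+ was given at 1 mM, and differentiation was induced with 1 µM retinoic acid and 5 µM forskolin, an activator of adenylyl cyclase, which the Ctrl and NAD+ libraries of that condition shared. The groups carried no genetic change, the treatment field of every library's label read untreated so that groups followed the titles, and the hour at which RNA was taken was not given in the sources used here.

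Retinol (vitamin A) is oxidised in cells to retinal and then to retinoic acid, which binds nuclear receptors of the RAR family. A RAR pairs with an RXR on DNA at retinoic acid response elements, where ligand exchanges corepressors for coactivators. Retinoic acid drives neural progenitors out of the cell cycle and is a standard additive in protocols that differentiate them in culture, and the receptor gene Rarb, the oxidase genes of the Cyp26 family and the retinal reductase gene Dhrs3 are textbook genes induced by it.

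The element that defines Rarb as a textbook response gene was shown first, because the gene's level is described in a medium with and without added retinoic acid and forskolin. The repeat unit searched was AGGTCA or any of its usual variants, namely AGTTCA and further GGGTCA and finally GGTTCA, taken as a direct repeat with 5 bases between the units (DR5), and also with 1 (DR1) or 2 (DR2), on both strands. Each RefSeq promoter window on GRCm38.p6 ran from 250 bases before a start site to 50 bases after it. The 250 bases before the RefSeq start of Rarb, chr14:16575477-16575726 on the minus strand, were as below, with the DR5 repeat units in capitals and 58% G and C.
Rarb: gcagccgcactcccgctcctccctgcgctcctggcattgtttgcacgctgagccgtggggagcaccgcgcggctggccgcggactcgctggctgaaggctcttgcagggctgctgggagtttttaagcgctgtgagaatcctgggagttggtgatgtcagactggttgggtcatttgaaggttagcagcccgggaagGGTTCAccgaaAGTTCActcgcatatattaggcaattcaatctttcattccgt

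This start site lay inside the longer gene annotated in GENCODE M21. The repeat spanned bases -53 to -37 from it, at chr14:16575513-16575529. The only DR5 match of the other pathway genes described below was in Cyp26a1, a retinoic acid oxidase gene, read on the opposite strand at chr19:37697776-37697792, bases -32 to -16.
Rarb DR5: GGTTCAccgaaAGTTCA
Cyp26a1 DR5: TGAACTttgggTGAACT

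A DR5 was present in 0.0974% of 32851 windows, a DR2 in 0.268% and a DR1 in 0.222%. Windows were given for 8 of the 9 genes, 18 windows in all, and none for Crabp2. None of the 17 other windows of these genes held a DR1, DR2 or DR5 in those letters. Of the 31 genes with a DR5 window, 5 were measured highly enough to be tested between conditions, and the repeat is a description of letters only.

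Values were FPKM (fragment counts divided by transcript length and by the library's mapped total), so that levels of different genes could be compared per length. The libraries held 21695 to 24022 genes above 0. Proliferating Ctrl replicate 1 stood slightly apart, with a mean correlation with its own group of 0.959 across genes against 0.966 to 0.974 in the other 11. The defining markers of neural stem cells summed to 2542 to 2792 FPKM in proliferating Ctrl and 725 to 813 in differentiation Ctrl, and those of cell division to 176 to 209 and 19.0 to 20.5. Astrocyte markers summed to 770 to 830 and 1225 to 1335 FPKM, with 4 of the 6 higher and Aldoc and S100b lower, oligodendrocyte lineage markers to 12.9 to 20.5 and 96.9 to 121, and neuron markers to 21.9 to 32.6 and 29.9 to 35.3. Microglia, endothelium, fibroblast and choroid plexus markers summed to at most 0.51 FPKM in any library. Mural cell markers summed to 0.16 to 0.27 FPKM in proliferating Ctrl, 0.16 to 0.31 in proliferating NAD+, 0.41 to 0.66 in differentiation Ctrl and 1.06 to 1.42 in differentiation NAD+.

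**Figure D1:**
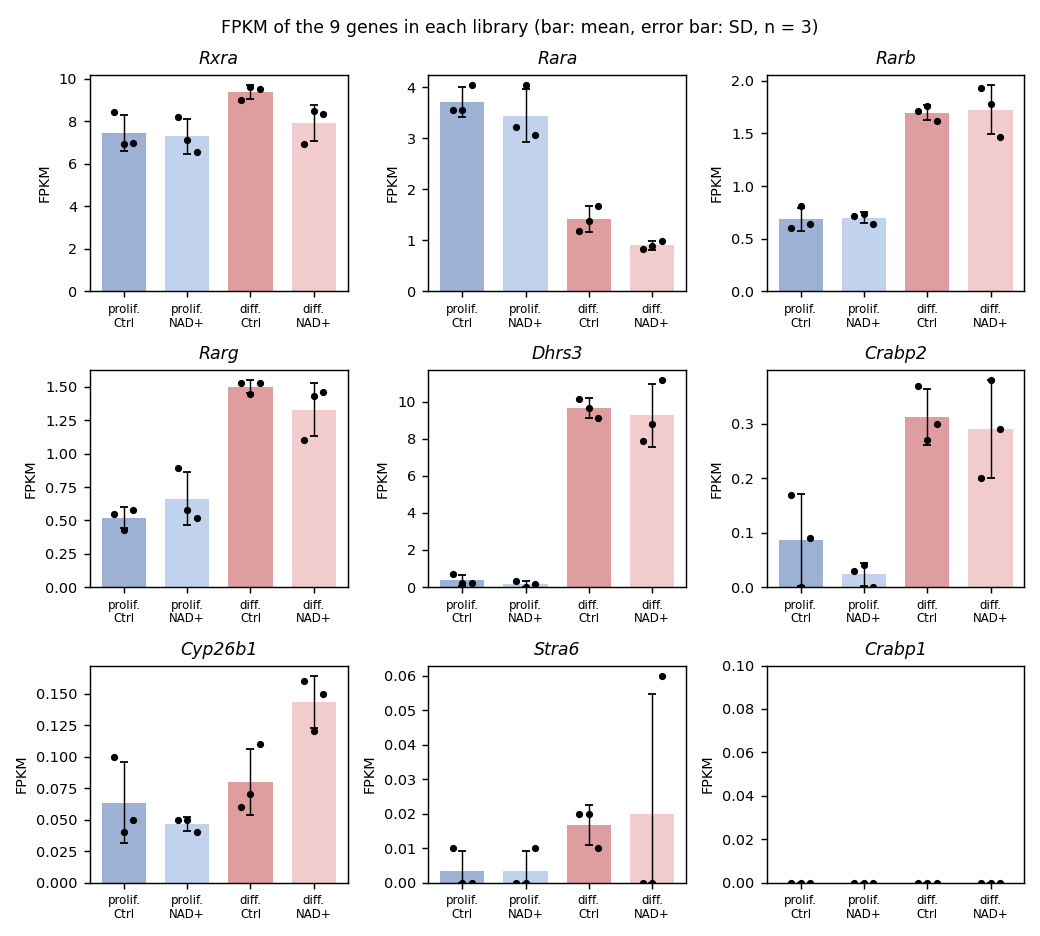
FPKM of each of the 9 genes in each library (y axis, linear from 0, a different range in each panel) for the 4 groups (x axis). Points are libraries, bars are means and error bars are SD (n = 3), which stop at 0. Dhrs3, Rarb and Rarg were higher and Rara lower in all differentiation libraries than in all proliferating ones, and Crabp1 was listed at 0 throughout.

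The differentiation condition was first set against the proliferating condition without NAD+. The comparison asks how the retinoic acid genes stood with and without retinoic acid and forskolin, given together, in the medium. Retinoic acid cannot be told apart from forskolin, because the differentiation libraries had both and the proliferating ones neither. Dhrs3, Rarg, Rarb, Crabp2 and Rxra were higher and Rara was lower in differentiation Ctrl. Crabp2 passed the filter on low values only through the differentiation groups, where it is high, so it is left out of the counts between conditions that follow. All 5 of the other tested genes passed, 4 higher and 1 lower, where 56.7% of 19498 tested genes passed, 25.0% higher and 31.6% lower. All but Rxra also met the study's rule of an unadjusted p under 0.05 with a ratio of mean FPKM over 2, which 31.1% of tested genes met. For all 5 genes the libraries of the conditions did not overlap, as was so for 27.9% of tested genes in the higher direction and 33.9% in the lower. Crabp1, Stra6 and Cyp26b1 were under the filter, a mean of 0.1 FPKM over the 12 libraries. The test was limma on log2(FPKM + 0.1) with Benjamini-Hochberg adjustment over all tested genes, a fold change on that scale understates changes of low genes, and ± gives SD with n = 3. The medium, the time in culture and the table the values came from cannot be told apart from the condition, nor can a change in which cells were present from a change within cells.

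Among the receptor genes, Rara encodes RARα, the broadly expressed family member (chr11:98927818-98974942, plus strand; coordinates here and below are mm10 gene spans from GENCODE M21). Its FPKM values were 3.55, 3.55 and 4.05 in proliferating Ctrl and 1.18, 1.39 and 1.68 in differentiation Ctrl. Every differentiation library was below every proliferating one, and the means were 3.72 ± 0.289 and 1.42 ± 0.251. Rara fell by 1.34 on the log2 scale (SE 0.15, limma adjusted p = 2.26e-05), to a ratio of 0.381.

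Rarb encodes RARβ, itself a target of retinoic acid (chr14:16430839-16819156, minus strand). Its FPKM values were 0.60, 0.81 and 0.64 in proliferating Ctrl and 1.71, 1.76 and 1.62 in differentiation Ctrl, with no overlap. The mean rose from 0.683 ± 0.112 to 1.70 ± 0.0710, a log2 change of 1.21 (SE 0.15, limma adjusted p = 5.44e-05) and a ratio of 2.48. Of the 5265 exon bases of Rarb, 1793 also belong to exons of Top2b, a DNA topoisomerase gene on the opposite strand, and the strand setting of the counting was not given in the sources used here, so that reads of those bases cannot be assigned to either gene with certainty. Top2b was at 13.98, 21.04 and 21.96 FPKM in proliferating Ctrl and 13.02, 12.64 and 13.22 in differentiation Ctrl. It fell by 0.52 on the log2 scale (limma adjusted p = 0.00876). The part of shared reads in the Rarb values was not tested.

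Rarg encodes RARγ (chr15:102234938-102257517, minus strand). It was at 0.55, 0.43 and 0.58 FPKM in proliferating Ctrl and 1.53, 1.45 and 1.53 in differentiation Ctrl. The groups did not overlap, and Rarg rose by 1.38 on the log2 scale (SE 0.20, limma adjusted p = 0.000149), a ratio of 2.89.

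Rxra encodes RXRα, the shared partner of RARs and of other nuclear receptors (chr2:27676440-27762957, plus strand). The libraries gave 8.43, 6.94 and 6.96 FPKM in proliferating Ctrl and 9.01, 9.61 and 9.54 in differentiation Ctrl. The groups did not overlap but the change was small, 0.34 on the log2 scale (SE 0.11, limma adjusted p = 0.0261) and a ratio of 1.26. The call was lost when proliferating Ctrl replicate 2 or 3 or differentiation Ctrl replicate 2 or 3 was left out, with limma adjusted p from 0.0680 to 0.0857.

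The makeup of RAR transcripts differed more than their sum. Rara made up 75.5% ± 1.37 of the summed FPKM of the 3 RAR genes in proliferating Ctrl and 30.6% ± 4.05 in differentiation Ctrl. Rarb went from 13.9% ± 2.59 to 36.8% ± 2.86 and Rarg from 10.6% ± 1.42 to 32.6% ± 1.74. None of the 3 shares overlapped between the conditions, and each had an exact two-sided permutation p of 0.10, the smallest that 3 libraries against 3 can give. The sum was 4.92 ± 0.306 FPKM in proliferating Ctrl and 4.62 ± 0.206 in differentiation Ctrl, with overlapping libraries and an exact permutation p of 0.30.

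**Figure D2:**
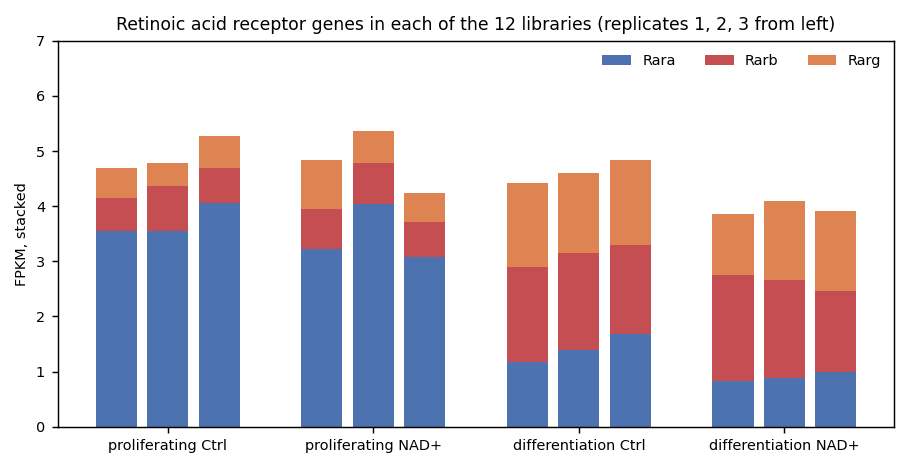
Stacked FPKM (y axis, linear from 0) of Rara, Rarb and Rarg in each of the 12 libraries, in replicate order within each group (x axis). The stacks are 3.86 to 5.36 FPKM high in all libraries, and Rara fills 66.7% to 76.9% of them under proliferating conditions and 21.5% to 34.8% under differentiation conditions.

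Of the intracellular binding proteins, Crabp2 carries retinoic acid to RARs in the nucleus (chr3:87948666-87953376, plus strand). Its level was 0.17, 0 and 0.09 FPKM in proliferating Ctrl and 0.37, 0.27 and 0.30 in differentiation Ctrl. The groups did not overlap, although the gene was low in all, and the log2 difference was 1.25 (SE 0.36, limma adjusted p = 0.0114), given as a description because of the filter. Crabp1, which binds retinoic acid in the cytosol (chr9:54764748-54773110, plus strand), was listed at 0 in all 12 libraries. Stra6, the membrane receptor through which retinol enters some cells (chr9:58063788-58153996, plus strand), was between 0 and 0.06 FPKM in every library. Neither gave a level that could be compared.

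Dhrs3, a reductase that returns retinal to retinol (chr4:144892827-144928209, plus strand), showed the largest difference of the 9 genes. Its FPKM values were 0.71, 0.20 and 0.19 in proliferating Ctrl and 10.17, 9.68 and 9.11 in differentiation Ctrl. Every differentiation library was many times above every proliferating one, and the highest proliferating value came from replicate 1, the library that stood slightly apart. The mean rose from 0.367 ± 0.297 to 9.65 ± 0.530 FPKM, a ratio of 26.3 and a log2 change of 4.56 (SE 0.45, limma adjusted p = 7.83e-06). Without proliferating Ctrl replicate 1 the log2 change was 5.05.

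Cyp26b1 encodes an oxidase that breaks down retinoic acid (chr6:84571414-84593908, minus strand). Its FPKM values were 0.10, 0.04 and 0.05 in proliferating Ctrl and 0.06, 0.07 and 0.11 in differentiation Ctrl. The groups overlapped and the gene was too low to be tested. The other oxidase genes of the family were lower still, with Cyp26a1 at 0 in 11 libraries and Cyp26c1 at 0 in 10.

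With NAD+ present in both conditions, and with Crabp2 left out as above, 4 of the 5 tested genes passed, 3 higher and 1 lower, where 58.4% of tested genes passed, 20.8% higher and 37.6% lower. These 4 genes also met the study's rule, which 33.4% of tested genes met, and did not overlap between conditions, as was so for 24.6% of tested genes in the higher direction and 41.7% in the lower. Rara was at 3.22, 4.04 and 3.07 FPKM in proliferating NAD+ and 0.83, 0.89 and 0.99 in differentiation NAD+, and fell by 1.81 on the log2 scale (SE 0.15, limma adjusted p = 1.87e-06). Rarb was at 0.72, 0.74 and 0.64 and then 1.93, 1.78 and 1.47, a log2 rise of 1.18 (SE 0.15, limma adjusted p = 5.28e-05). Neither receptor gene overlapped between the groups. Top2b again fell, by 0.63 on the log2 scale (limma adjusted p = 0.00259).

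Rarg was at 0.89, 0.58 and 0.52 FPKM in proliferating NAD+ and 1.10, 1.43 and 1.46 in differentiation NAD+, a log2 rise of 0.93 (SE 0.20, limma adjusted p = 0.00217). Dhrs3 was at 0.31, 0.02 and 0.14 and then 7.86, 8.77 and 11.15, a ratio of 59.1 and a log2 rise of 5.35 (SE 0.45, limma adjusted p = 1.88e-06). Crabp2 was at 0.03, 0.04 and 0 and then 0.20, 0.38 and 0.29, a log2 difference of 1.65 (SE 0.36, limma adjusted p = 0.00217), again a description because of the filter. For these 3 genes the libraries of the conditions did not overlap.

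Rxra did not pass with NAD+. It was at 8.20, 7.13 and 6.55 FPKM in proliferating NAD+ and 6.93, 8.49 and 8.33 in differentiation NAD+, and the groups overlapped. The log2 difference was 0.12 (95% interval -0.13 to 0.37, limma adjusted p = 0.401). It passed with median-ratio scaling of the libraries (0.40, limma adjusted p = 0.0217) and with quantile normalization (0.48, limma adjusted p = 0.00701), which moved the median log2 change of all tested genes from -0.20 to 0.05 and -0.02. Cyp26b1 was at 0.05, 0.05 and 0.04 FPKM in proliferating NAD+ and 0.16, 0.12 and 0.15 in differentiation NAD+, without overlap and at a ratio of 3.07, but under the filter and with an exact permutation p of 0.10.

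**Figure D3:**
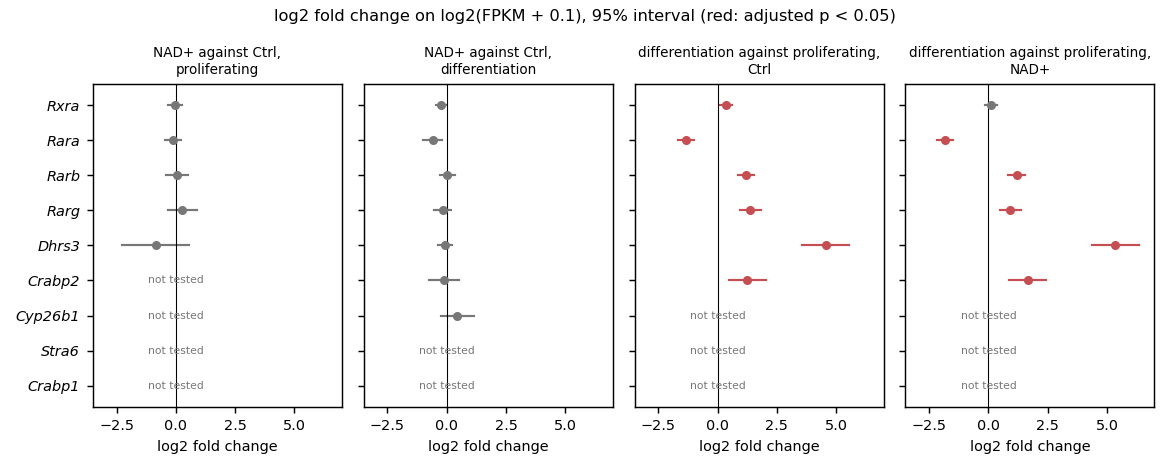
log2 fold change with its 95% interval (x axis, on log2(FPKM + 0.1)) of each of the 9 genes (y axis) in 4 comparisons. Red marks adjusted p under 0.05 in limma. No interval is red in either NAD+ comparison, whereas 6 and 5 are red between conditions, Crabp2 among them, which passed the filter only through the differentiation groups.

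The order of the levels changed with the condition. In proliferating Ctrl it ran from Rxra through Rara, Rarb, Rarg and Dhrs3 to Crabp2, Cyp26b1, Stra6 and Crabp1, with the libraries of Rarg and Dhrs3, of Crabp2 and Cyp26b1, and of Stra6 and Crabp1 overlapping. In differentiation Ctrl it ran from Dhrs3 through Rxra, Rarb, Rarg and Rara to Crabp2, Cyp26b1, Stra6 and Crabp1, with overlap among neighbours only of Dhrs3 with Rxra and of Rarg with Rara. Among genes of at least 1 FPKM on average, the 3 whose log2 levels followed Dhrs3 most closely over the 12 libraries were Anxa5 (Pearson r = 0.9956), S1pr1 (0.9951) and Gpr37l1 (0.9943), of 12927 genes searched. For Rara they were Gm13493 (0.9884), Rbmxl1 (0.9882) and Ptges3 (0.9881). These are descriptions in which all points share the split into conditions.

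The NAD+ comparison within each condition asks whether exposure to NAD+ changed these genes. Under proliferating conditions none of the 5 tested genes passed in limma, none had an unadjusted p under 0.05, and none met the study's rule. Of all 18597 tested genes, 0.145% passed (0.0484% higher and 0.0968% lower), 15.4% had an unadjusted p under 0.05 and 3.01% met the study's rule. For all 5 tested genes the Ctrl and NAD+ libraries overlapped, where 15.5% of tested genes were higher and 8.59% lower in all 3 NAD+ libraries. Cyp26b1, Crabp1, Crabp2 and Stra6 were under the filter, at or near 0, and overlapped as well.

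The means of Rara were 3.72 ± 0.289 FPKM in proliferating Ctrl and 3.44 ± 0.522 in NAD+, a log2 difference of -0.11 (95% interval -0.45 to 0.23). Rarb differed by 0.04 (interval -0.43 to 0.51), Rarg by 0.28 (interval -0.33 to 0.89) and Rxra by -0.03 (interval -0.34 to 0.28). Their limma adjusted p-values were 0.622 to 0.946, and the intervals leave room for moderate changes in either direction. Dhrs3 had the widest interval, with 0.367 ± 0.297 FPKM in Ctrl and 0.157 ± 0.146 in NAD+ and a log2 difference of -0.86 (interval -2.27 to 0.55, limma adjusted p = 0.517). Without proliferating Ctrl replicate 1 that difference was -0.37.

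Under differentiation conditions none of the 7 tested genes passed in limma either, where 6.92% of 19611 tested genes passed (2.27% higher and 4.65% lower) and 4.05% met the study's rule, which again none of the 9 genes met. Rara and Rxra had an unadjusted p under 0.05, as did 24.2% of all tested genes. Rara was at 1.18, 1.39 and 1.68 FPKM in Ctrl and at 0.83, 0.89 and 0.99 in NAD+, so that all 3 NAD+ libraries were below all 3 Ctrl libraries, as they were for 21.1% of tested genes. The log2 difference was -0.59 (SE 0.17, 95% interval -0.99 to -0.19), with a limma p of 0.0109 and an adjusted p of 0.0924, which ranged from 0.0883 to 0.208 over 14 alternative settings. Rara thus failed the correction in this fit and in each of those settings.

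Rxra was at 9.01, 9.61 and 9.54 FPKM in differentiation Ctrl and at 6.93, 8.49 and 8.33 in NAD+. The NAD+ libraries were again all below the Ctrl libraries, with a log2 difference of -0.25 (SE 0.09, 95% interval -0.47 to -0.03, limma adjusted p = 0.166). Cyp26b1 was the gene that was higher in all 3 NAD+ libraries, at 0.16, 0.12 and 0.15 FPKM against 0.06, 0.07 and 0.11, which was so for 9.68% of tested genes. It was tested only because the NAD+ group lifted its mean over the filter, and the log2 difference was 0.44 (SE 0.29, 95% interval -0.25 to 1.14, limma adjusted p = 0.414).

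The remaining 4 tested genes overlapped between Ctrl and NAD+ under differentiation conditions. The log2 difference was 0.02 for Rarb (95% interval -0.30 to 0.33), -0.17 for Rarg (-0.52 to 0.17), -0.10 for Crabp2 (-0.73 to 0.53) and -0.07 for Dhrs3 (-0.39 to 0.24), with limma adjusted p-values from 0.508 to 0.960. Dhrs3 was at 10.17, 9.68 and 9.11 FPKM in Ctrl and 7.86, 8.77 and 11.15 in NAD+, a spread within NAD+ that exceeded the difference of the means. The share of Rara in the summed RAR FPKM was 30.6% ± 4.05 in Ctrl and 22.8% ± 2.11 in NAD+, and the sum was 4.62 ± 0.206 and 3.96 ± 0.125 FPKM. Both were lower in all 3 NAD+ libraries, with an exact permutation p of 0.10 each, the smallest possible. Oligodendrocyte lineage markers summed to 96.9 to 121 FPKM in Ctrl and 44.7 to 62.5 in NAD+ and mural cell markers to 0.41 to 0.66 and 1.06 to 1.42. Astrocyte markers summed to 1225 to 1335 and 1509 to 1629 FPKM, but they did not move together. Gfap rose from 595 to 977 FPKM and Slc1a2 from 53.0 to 63.5, Aldoc fell from 333 to 261 (limma adjusted p = 0.00613, 0.0366 and 0.0475), and Aqp4, S100b and Gja1 did not pass, with a list median of -0.07 on the log2 scale. The part of these cell types in the Rara and Rxra values was not tested.

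Whether the NAD+ difference itself changed with the condition was tested as an interaction. None of the 6 tested genes passed in limma and none had an unadjusted p under 0.05. Among 19498 tested genes 0.467% passed and 15.5% had such a p. Crabp2 is among the 6, although it passed the filter only through the differentiation groups, so its coefficient is a description. The NAD+ log2 difference of Rara was lower by 0.47 under differentiation conditions (coefficient -0.47, 95% interval -0.95 to 0.01, limma adjusted p = 0.327, unadjusted 0.0522). The other coefficients were -0.45 for Rarg, -0.22 for Rxra, -0.02 for Rarb, 0.40 for Crabp2 and 0.79 for Dhrs3, all with intervals that included 0. Leaving out 1 library moved them to between -0.59 and -0.25 for Rarg, -0.31 and -0.13 for Rxra, 0.07 and 0.79 for Crabp2, and 0.30 (without proliferating Ctrl replicate 1) and 1.21 (without proliferating NAD+ replicate 1) for Dhrs3. A difference in the NAD+ response between conditions was therefore not shown for any of these genes.

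The wider retinoid pathway was described with 5 lists of 63 genes, taken from textbook roles, apart from the 9 genes. Of all 19498 genes tested between conditions without NAD+, 25.0% were higher and 31.6% lower. Between conditions without NAD+, the list of transport, storage and binding proteins had 6 of 10 genes tested, of which Fabp5 and Rlbp1 were lower. Fabp5, a fatty acid binding protein that also carries retinoic acid, fell from 211 ± 4.79 to 104 ± 4.56 FPKM, a log2 change of -1.02 (limma adjusted p = 8.57e-07). Its value is uncertain because near-identical processed copies exist in the genome. Rlbp1, a retinal binding protein, fell from 5.37 ± 0.651 to 0.913 ± 0.133 FPKM (log2 change -2.43, limma adjusted p = 1.65e-06).

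The list of retinoic acid synthesis enzymes had 13 of 17 genes tested, 4 higher and 5 lower, with a median log2 change of -0.26 beside -0.06 for all tested genes. Retsat, counted in this list although it saturates retinol rather than oxidising it, rose from 8.29 ± 0.236 to 25.1 ± 0.411 FPKM (log2 change 1.59, limma adjusted p = 8.92e-09). The retinol dehydrogenase gene Rdh10, whose enzyme makes retinal, rose by 0.80 on the log2 scale (limma adjusted p = 1.28e-05) and Rdh5 by 1.55 (limma adjusted p = 0.000336). Dhrs4 fell by 0.62 (limma adjusted p = 0.00112). Among the retinal dehydrogenases that make retinoic acid, Aldh1a1 was at 8.56 ± 4.20 and 10.6 ± 0.583 FPKM with overlap, Aldh1a3 fell from 0.190 ± 0.0700 to 0.0167 ± 0.0153 FPKM, and Aldh1a2 was listed at 0 in 11 of 12 libraries. The enzymes of this list thus did not move in 1 direction. The catabolism list, Cyp26a1 and Cyp26c1, had neither gene tested.

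**Figure D4:**
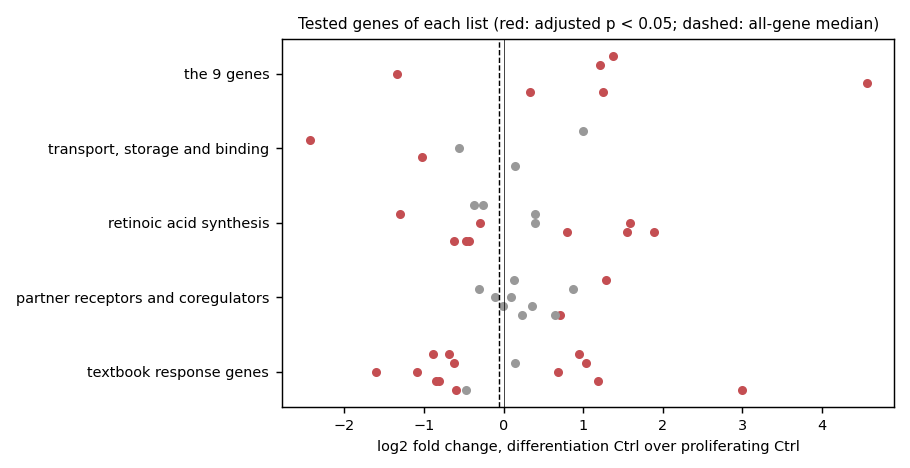
log2 fold change of differentiation Ctrl over proliferating Ctrl (x axis, on log2(FPKM + 0.1)) for the tested genes of the 9 and of 4 pathway lists (y axis, points offset for legibility). Red marks adjusted p under 0.05 in limma, and the dashed line is the median of all tested genes, -0.06. A gene that is not reported here is not drawn, Dhrs3 is the rightmost point at 4.56, and response genes lie on both sides of 0.

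All 11 partner receptors and coregulators were tested, with 2 higher and none lower, where 25.0% of all tested genes were higher and 31.6% lower. The list median was 0.23, beside -0.06 for all tested genes. The coactivator genes Ncoa3 and Crebbp rose by 1.29 and 0.70 on the log2 scale (limma adjusted p = 8.81e-05 and 0.000347). Rxrb, which like Rxra encodes an RXR, was at 8.07 ± 0.707 FPKM in proliferating Ctrl and 8.84 ± 0.927 in differentiation Ctrl, with overlap, and Rxrg stayed at or below 0.76 FPKM in every library.

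Of the 23 textbook response genes 15 were tested, 5 higher and 8 lower, with a median of -0.59, and 6 were listed at 0 in all 12 libraries. Among all tested genes 25.0% were higher and 31.6% lower. Rarres1, a gene named for its induction by retinoids, was at 0.55, 0.37 and 0.73 FPKM in proliferating Ctrl and 4.39, 5.56 and 4.93 in differentiation Ctrl (log2 change 2.99, SE 0.21, limma adjusted p = 6.35e-07). Rarres2, the chemerin gene, rose by 1.18 (limma adjusted p = 0.00111). Hoxa5, a homeobox gene of anterior-posterior patterning, fell from 4.90 ± 0.693 to 1.56 ± 0.354 FPKM (log2 change -1.61, limma adjusted p = 0.000351), and the transcriptional regulator gene Zfp703 fell by 0.88 (limma adjusted p = 0.000111). The response genes outside the 9 went in both directions, as did tested genes at large.

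With NAD+ under proliferating conditions, 1 of the 63 list genes passed, Fabp5, from 211 ± 4.79 to 127 ± 4.15 FPKM (log2 change -0.74, limma adjusted p = 0.0326). Of all tested genes 0.145% passed in that comparison. Fabp5 was lower in all 3 NAD+ libraries, but its call was lost when proliferating Ctrl replicate 2 or 3 or any NAD+ replicate was left out (limma adjusted p from 0.109 to 0.180), without the filter (0.0553), with quantile normalization (0.0517) and without moderation of the variance (0.0569). Under differentiation conditions Fabp5 was at 106, 98.7 and 107 FPKM in Ctrl and 53.2, 47.8 and 43.4 in NAD+. It fell by 1.11 on the log2 scale (SE 0.08, limma adjusted p = 0.00361) and stayed past the threshold in every alternative run.

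Under differentiation conditions 3 of the 12 tested synthesis genes were higher with NAD+ and none was lower, with a list median of 0.05 beside -0.08 for all tested genes. Of all 19611 tested genes 2.27% were higher and 4.65% lower. Rdh5 was at 8.64, 9.13 and 9.30 FPKM in Ctrl and 13.57, 14.84 and 13.06 in NAD+, and rose by 0.61 on the log2 scale (SE 0.07, limma adjusted p = 0.00829). Rdh10 was at 5.97, 5.52 and 5.71 and then 7.91, 7.66 and 8.03, and rose by 0.45 (SE 0.06, limma adjusted p = 0.0142). The groups did not overlap for either gene, and the call of Rdh10 was lost without differentiation Ctrl replicate 2 or 3 or NAD+ replicate 3 (limma adjusted p = 0.0561, 0.0567 and 0.0508). Aldh1a1 rose from 10.6 ± 0.583 to 13.6 ± 1.11 FPKM (log2 change 0.36, limma adjusted p = 0.0488), a call lost when any 1 of the 6 libraries was left out (0.0789 to 0.147). None of these 3 genes passed with NAD+ under proliferating conditions. Their log2 differences there were 0.54 for Rdh10, 0.88 for Rdh5 and -0.48 for Aldh1a1 (limma adjusted p = 0.126, 0.277 and 0.601). Rdh10 was higher in all 3 of those NAD+ libraries, as were 15.5% of tested genes, and the other genes overlapped. None of the 3 interactions passed (coefficients -0.09, -0.27 and 0.83 in that order, limma adjusted p = 0.752, 0.743 and 0.409).

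Among the 15 tested response genes 2 were higher with NAD+ and none was lower, with a median of 0.19, beside 2.27% higher and 4.65% lower of all tested genes. Rarres1 rose from 4.96 ± 0.586 to 7.44 ± 0.856 FPKM (log2 change 0.58, limma adjusted p = 0.0427), a call lost when any 1 library was left out (0.0516 to 0.123). Bhlhe40, a transcriptional repressor gene, rose from 14.1 ± 0.426 to 17.7 ± 0.933 FPKM (log2 change 0.33, limma adjusted p = 0.0279), a call lost without any 1 library except NAD+ replicate 1 (0.0715 to 0.10). None of the 11 coregulator genes passed, and 1 of 5 tested transport genes was lower, Fabp5.

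**Figure D5:**
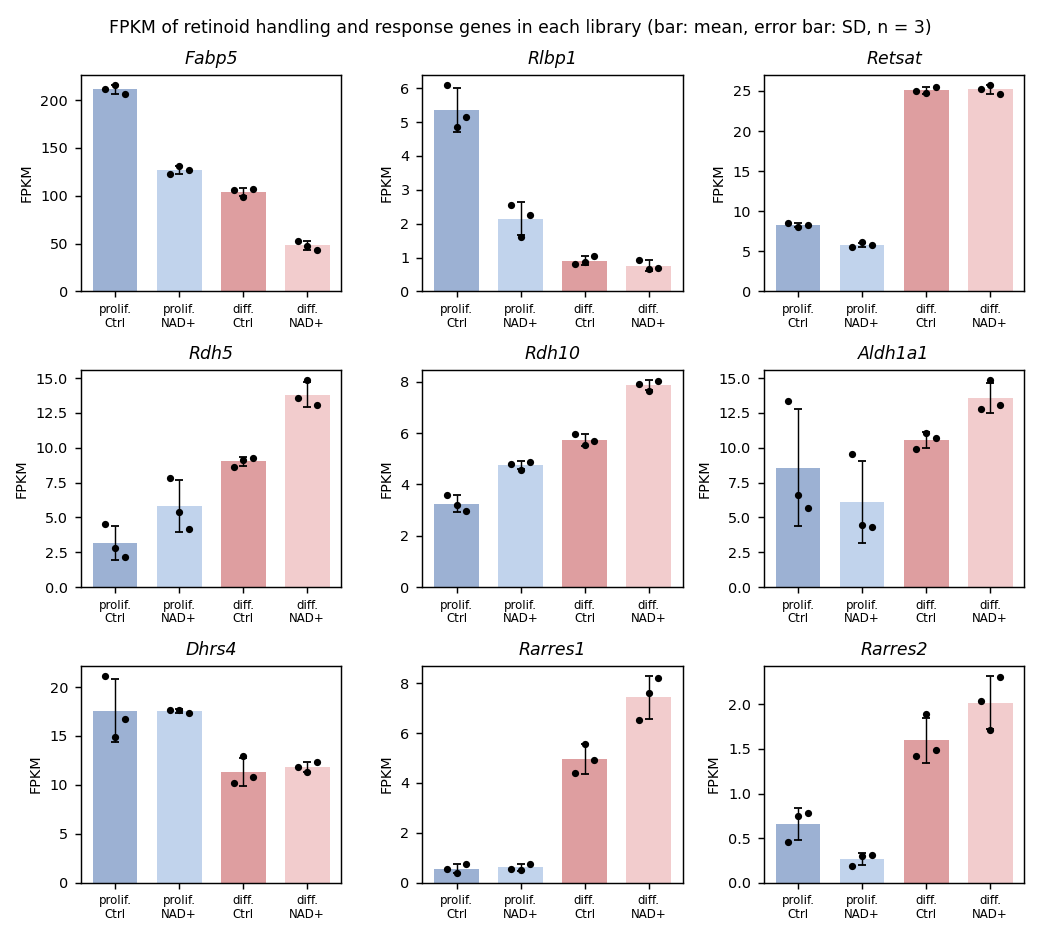
FPKM (y axis, linear from 0, a different range in each panel) of 9 retinoid handling and response genes in each library for the 4 groups (x axis). Points are libraries, bars are means and error bars are SD (n = 3). Fabp5 was lower with NAD+ in both conditions, and Rdh5, Rdh10 and Rarres1 were higher with NAD+ under differentiation conditions. The means of Rdh5 and Rdh10 were also higher with NAD+ under proliferating conditions, where neither passed in limma.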

How the data were processed

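The authors mapped clean reads to mm10 with Hisat2, kept uniquely mapped reads and counted them per gene with FeatureCounts, and deposited FPKM values rounded to 0.01 in 1 table per condition. The program behind the FPKM values and the strand setting were not given in the sources used here. The tables' columns of fold changes, p and q values hold the authors' comparisons and were not used. Counts were not used here, so sequencing depth is unknown and no counting intervals are given.

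The 9 genes and all lists were chosen with earlier results of these data known. Genes with a mean of at least 0.1 FPKM over the libraries of a fit were tested with limma 3.58.1 in R 4.3.3 (trend) on log2(FPKM + 0.1), two-sided, with Benjamini-Hochberg adjustment over all tested genes and a threshold of 0.05. NAD+ was compared with Ctrl in fits of 6 libraries, and conditions and the interaction in 1 fit of 12. Conditions lie in separate tables. Summed FPKM times exon length, as a share of the total that full read assignment would give, was 0.873 to 0.885 in differentiation libraries and 0.891 to 0.901 in proliferating ones, so the scale is per library in both. Ratios are of mean FPKM. Named pathway genes were up to 4 per list and comparison with adjusted p under 0.05, a mean of at least 1 FPKM and the largest changes, and other genes were named after their values were seen. Some genes that met this rule are not reported here. Replicates are the labels' numbered samples, described as biological in the study. Scripts were tested on simulated data.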

Additional observations from a re-analysis of the deposited data

Results flagged for a closer look

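Retsat, which saturates retinol, differed in its NAD+ response between the conditions. It was at 8.54, 8.07 and 8.26 FPKM in proliferating Ctrl and 5.51, 6.11 and 5.75 in proliferating NAD+, and at 24.99, 24.75 and 25.55 FPKM in differentiation Ctrl and 25.27, 25.74 and 24.66 in differentiation NAD+. The interaction coefficient was 0.52 on the log2 scale (SE 0.08, 95% interval 0.33 to 0.71, limma adjusted p = 0.0311). Within proliferating conditions the NAD+ libraries were all lower, but the difference of -0.51 did not pass on its own (limma adjusted p = 0.0973). The interaction stayed past the threshold without proliferating Ctrl replicate 1 or proliferating NAD+ replicate 1 and was lost when any 1 of the other 10 libraries was left out (limma adjusted p from 0.0509 to 0.105) and in a fit with a replicate block (0.0774). None of the 9 genes met a rule for a closer look.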

How the results depend on the processing

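The counts of the 9 genes called, Crabp2 included, did not change direction under any alternative: 0 in both NAD+ comparisons and in the interaction, 5 to 6 between conditions without NAD+ and 4 to 6 with NAD+, where a stricter minimum of 1 FPKM left genes such as Crabp2 untested. Leaving out 1 library gave 5 to 6 and 5 calls. Whether replicate numbers pair the libraries was not settled. Same-number correlations were 0.0215 to 0.111 under proliferating and 0.0257 to 0.0432 under differentiation conditions. Each library correlated best with its own number under differentiation conditions. Under proliferating conditions Ctrl replicate 3 correlated best with NAD+ replicate 2 (0.0734). A fit with a replicate block gave counts of calls of 0, 0, 6, 5 and 0. Among the pathway genes named, that fit lost the NAD+ calls of Fabp5 under proliferating (limma adjusted p = 0.147) and Aldh1a1 under differentiation conditions (0.0536). Differences near 0 changed sign. With median-ratio scaling the NAD+ difference of Rarb was -0.0199 under proliferating conditions, that of Dhrs3 was 0.0096 under differentiation conditions and the interaction of Rarb was 0.12. With quantile normalization Crabp2 under differentiation conditions was 0.0262 and the interaction of Rarb 0.12. Leaving out 1 library gave -0.0388 to 0.15 for Rarb and -0.12 to 0.0625 for Rxra under proliferating conditions, -0.0638 to 0.12 for Rarb, -0.27 to 0.0732 for Crabp2 and -0.21 to 0.0359 for Dhrs3 under differentiation conditions, and -0.13 to 0.0839 for the interaction of Rarb. None of these was past the threshold. Crabp2 between conditions without NAD+ lost its call with 0.01 added before the log (limma adjusted p = 0.0521) and with quantile normalization (0.0851), and the cause was not tested. Median-ratio scaling moved the share of higher genes among all calls from 32.8% to 53.5% for NAD+ under differentiation, from 33.3% to 21.2% under proliferating conditions, from 35.6% to 51.0% between conditions with NAD+ and from 47.3% to 74.5% for the interaction. It moved the median log2 change of all tested genes from -0.06 to 0.06 between conditions without NAD+ and from -0.16 to -0.01 for the interaction. Settings for the pathway genes and the Retsat interaction were added after the data were seen. With 3 libraries a group, a change of the size of the intervals given can be missed, and depth is unknown.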

Other observations

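The deposited gene annotation offered broader lists of retinoid genes, which were chosen after values were seen and are given as a description. Between conditions without NAD+, 42 of 56 genes annotated to the cellular response to retinoic acid were tested, with 10 higher and 16 lower. Their median log2 change was -0.04 beside -0.06 for all tested genes, of which 25.0% were higher and 31.6% lower. Abca1, a cholesterol exporter, was at 12.11, 9.07 and 7.23 FPKM in proliferating Ctrl and 51.54, 57.92 and 55.87 in differentiation Ctrl (log2 change 2.56, SE 0.31, limma adjusted p = 4.06e-05). Tnc, an extracellular matrix glycoprotein of the stem cell niche, fell from 18.01, 21.50 and 18.89 to 1.78, 1.88 and 1.49 FPKM (log2 change -3.43, limma adjusted p = 1.37e-07). The groups did not overlap for either gene.

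Of 53 genes annotated to the response to retinoic acid 36 were tested, with 9 higher and 10 lower. Igfbp2, an insulin-like growth factor binding protein, fell from 978, 700.1 and 765 FPKM to 24.2, 29.5 and 18.9 (log2 change -5.07, limma adjusted p = 2.95e-09). The connexin gene Gjb2 rose by 2.56 on the log2 scale (limma adjusted p = 0.000158). Of 40 genes annotated to retinol metabolism 25 were tested, with 8 higher and 8 lower. Of 18 genes annotated to retinoic acid metabolism 8 were tested, with 4 higher and 1 lower and a median of 0.83, and of 9 annotated to retinal dehydrogenase activity 5 were tested, with none higher and 3 lower and a median of -0.62. These lists share genes with each other and with the lists above. Their counts stand beside the 25.0% higher and 31.6% lower of all tested genes. Genes that passed the filter through 1 condition only were not removed from them.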
